A study of Homo sapiens with 9 samples.

Results

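The genes HMGCS1, SQLE, INSIG1, IDI1, FDFT1, LSS, DHCR7 and ACAT2 code for 7 enzymes of cholesterol synthesis and for INSIG1, a membrane protein that restrains the pathway. They were taken by symbol from the deposited expression table, in which 62710 genes are listed, and all 8 were found. All 8 were also among the 15230 genes with a mean value of at least 10 over the 9 libraries, which were the genes tested. The set had been put together under the name of cholesterol synthesis and LDL uptake, but none of the 8 genes codes for a protein that takes up LDL, so the values concern synthesis and its control by INSIG1.

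A375R is a line of human melanoma cells with resistance to PLX4032, an analog of the kinase inhibitor vemurafenib, and is grown in medium with that compound, so the control cells were grown with it too. The study compared cells that had received DMSO, the solvent, with cells exposed for 2 h to VHL-r or to R4VPL3-1, each at 10 µM, with 3 libraries per treatment. VHL-r is the moiety that binds the ubiquitin ligase VHL. R4VPL3-1 is the full PROTAC-like molecule, in which a linker joins a VHL recruiter to a moiety that binds another ubiquitin ligase, RNF4. The titles of the control libraries carry only the tag WT and no dose, and their treatment with DMSO comes from the series' design text. All 9 libraries came from this 1 cell line, and the study describes the 3 of each treatment as biological repeats. Each library held between 26435568 and 32085626 reads assigned to genes.

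Animal cells make cholesterol from acetyl-CoA through mevalonate, isoprenoid units, squalene and lanosterol. When the endoplasmic reticulum membrane is poor in sterol, SCAP carries the transcription factor SREBP2 to the Golgi apparatus, where proteases release its active part, and this raises transcription of most enzymes of the route. INSIG proteins hold SCAP in the endoplasmic reticulum when sterol is plentiful, and INSIG1 is itself a target gene of SREBP.

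The 8 transcripts did not move together. INSIG1 rose with both compounds, to 1.58-fold of DMSO with VHL-r and to 3.45-fold with R4VPL3-1, and IDI1 rose to 1.38-fold and 1.66-fold. SQLE rose with R4VPL3-1 to 1.18-fold of DMSO. HMGCS1 was 1.21-fold higher with R4VPL3-1 than with VHL-r, a call that depended on single libraries, and it passed the test against DMSO with neither compound. LSS, DHCR7, FDFT1 and ACAT2 passed the test in none of the 3 comparisons.

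Values are normalized counts, that is, reads per gene divided by a size factor of the library. Differences were tested with limma on log2(normalized count + 1), all 9 libraries in one fit, and a gene was called, or is said to have risen or fallen, where p, adjusted over all 15230 genes by the Benjamini-Hochberg method, was at most 0.05. Fold changes are on that scale, and each range that follows one is its 95% confidence interval. In RNA from whole cultures, fewer cells of a kind and less RNA per cell cannot be told apart, and every value is relative to the rest of the library. R4VPL3-1 and VHL-r, the only pair of compounds, were given at the same dose and for the same time, so they could be compared directly, and both comparisons with DMSO share the same 3 DMSO libraries.

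Between R4VPL3-1 and VHL-r, 3 of the 8 genes were called, INSIG1, IDI1 and HMGCS1, all higher with R4VPL3-1, where 1.14% of all tested genes were called higher. Without R4VPL3-1 replicate 1 the count was 1, INSIG1. Between R4VPL3-1 and DMSO, 3 of the 8 were called, INSIG1, IDI1 and SQLE, all higher, against 13.1% of all tested genes. Between VHL-r and DMSO, 2 of the 8 were called, INSIG1 and IDI1, both higher, against 10.3% of all tested genes. None of the 8 was called lower in any comparison, where 0.729%, 11.8% and 9.51% of all tested genes were. The median log2 difference of the 8 genes was 0.14 for R4VPL3-1 against VHL-r, 0.10 for R4VPL3-1 against DMSO and 0.06 for VHL-r against DMSO, while the medians over all tested genes lay between -0.006 and -0.004. All 3 R4VPL3-1 libraries were above all 3 VHL-r libraries for 5 of the 8 genes, the 3 called ones with SQLE and DHCR7, where this held for 6.99% of tested genes. Against DMSO the libraries did not overlap for INSIG1, IDI1 and SQLE, with R4VPL3-1 (19.1% of tested genes higher without overlap) and with VHL-r (17.1%).

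**Figure D1:**
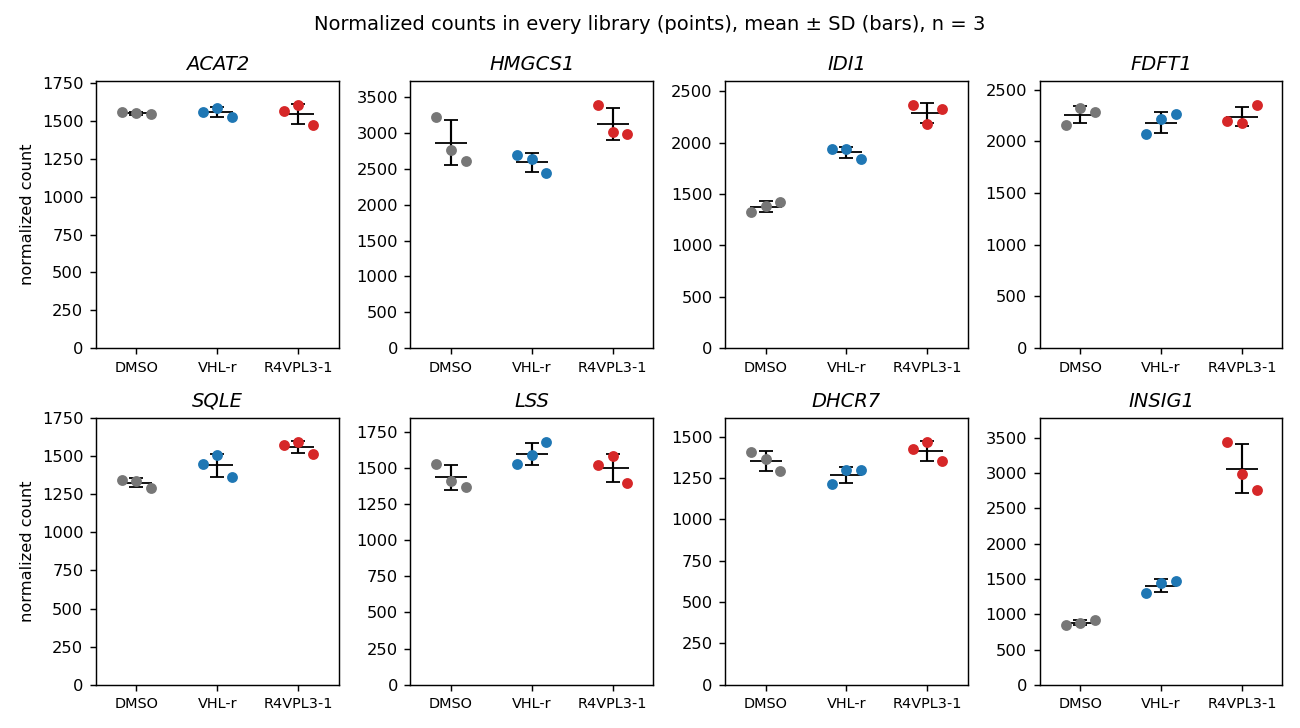
Normalized counts of the 8 genes in each of the 9 libraries (points, replicates 1 to 3 from left to right) with the mean ± SD of each treatment (bars, n = 3), each panel with its own axis from 0, and enzymes in the order of the pathway before INSIG1. The INSIG1 and IDI1 points of the 3 treatments lie in separate ranges, while those of ACAT2 and FDFT1 overlap throughout.

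INSIG1 (ENSG00000186480) lies at chr7:155297776-155310235 on the plus strand of GRCh38. In the DMSO libraries its normalized counts were 848, 881 and 921. With VHL-r they were 1297, 1437 and 1471. With R4VPL3-1 they were 3442, 2987 and 2757. The 3 treatments did not overlap, and the lowest R4VPL3-1 library stood well above the highest VHL-r library. The means were 883 ± 36.4, 1402 ± 92.2 and 3062 ± 349 (SD, n = 3), so the spread was widest with R4VPL3-1, where the coefficient of variation was 11.4%. R4VPL3-1 exceeded VHL-r 2.18-fold (1.97 to 2.41; log2 difference 1.12, SE 0.07, limma adjusted p = 1.13e-09). It exceeded DMSO 3.45-fold (3.12 to 3.82; log2 difference 1.79, adjusted p = 1.18e-13), and VHL-r exceeded DMSO 1.58-fold (1.43 to 1.75; log2 difference 0.66, adjusted p = 5.79e-07).

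The enzymes follow in the order of the pathway. ACAT2, the cytosolic thiolase that joins 2 molecules of acetyl-CoA, gave normalized counts of 1561, 1551 and 1545 with DMSO, 1561, 1590 and 1527 with VHL-r and 1568, 1605 and 1476 with R4VPL3-1. The treatments overlapped completely. For ACAT2 the difference between R4VPL3-1 and VHL-r had a confidence interval of 0.922-fold to 1.07-fold (limma adjusted p = 0.984), and the intervals against DMSO were 0.926-fold to 1.07-fold for R4VPL3-1 and 0.932-fold to 1.08-fold for VHL-r.

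HMGCS1 (ENSG00000112972; chr5:43287470-43313512, minus strand) codes for the cytosolic enzyme that makes HMG-CoA. Cells with DMSO gave 3221, 2766 and 2613 normalized counts. They were 2696, 2643 and 2443 with VHL-r and 3388, 3017 and 2988 with R4VPL3-1. Every R4VPL3-1 library was above every VHL-r library, but the DMSO libraries overlapped those of both compounds, with a coefficient of variation of 11%. R4VPL3-1 exceeded VHL-r 1.21-fold (1.09 to 1.33; log2 difference 0.27, SE 0.07, limma adjusted p = 0.0388). That call was lost without R4VPL3-1 replicate 1 (adjusted p = 0.272) or 2 (0.0678), without VHL-r replicate 2 (0.116) or 3 (0.194), and without DMSO replicate 2 (0.0505), which enters only through the shared estimate of the spread. It was also lost without a filter on low values (0.0593) and with limma's robust option (0.0603). Against DMSO the log2 difference was 0.13 for R4VPL3-1 (adjusted p = 0.173) and -0.14 for VHL-r (adjusted p = 0.166). A fit with a replicate block, given with the processing alternatives below, called both differences, R4VPL3-1 higher and VHL-r lower. Without DMSO replicate 1, the highest DMSO library, R4VPL3-1 was called higher than DMSO (log2 difference 0.22, adjusted p = 0.016). Without DMSO replicate 3, the lowest, VHL-r was called lower (log2 difference -0.20, adjusted p = 0.0485).

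IDI1 (ENSG00000067064; chr10:1039152-1049119, minus strand) codes for the isomerase that interconverts isopentenyl and dimethylallyl diphosphate, the building blocks of all isoprenoids. Its normalized counts were 1325, 1386 and 1425 with DMSO, 1942, 1934 and 1846 with VHL-r and 2364, 2179 and 2332 with R4VPL3-1. As for INSIG1, the 3 treatments did not overlap and R4VPL3-1 was the highest. The distances differed from those of INSIG1, since for IDI1 the step from DMSO to VHL-r was the larger one, 0.47 on the log2 scale against 0.26 from VHL-r to R4VPL3-1, though the steps were not tested against each other. VHL-r exceeded DMSO 1.38-fold (1.28 to 1.49; limma adjusted p = 1.19e-06) and R4VPL3-1 exceeded DMSO 1.66-fold (1.54 to 1.79; adjusted p = 1.12e-09). R4VPL3-1 exceeded VHL-r 1.2-fold (1.11 to 1.3; adjusted p = 0.00535), and this call alone was lost in 1 fit, that without R4VPL3-1 replicate 1 (adjusted p = 0.0513).

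FDFT1 codes for squalene synthase, which commits farnesyl diphosphate to sterols. FDFT1 had normalized counts of 2162, 2321 and 2287 with DMSO, 2071, 2211 and 2261 with VHL-r and 2192, 2177 and 2348 with R4VPL3-1, so the treatments overlapped. The confidence interval of the FDFT1 difference was 0.952-fold to 1.11-fold for R4VPL3-1 against VHL-r (limma adjusted p = 0.916), 0.92-fold to 1.07-fold for R4VPL3-1 against DMSO and 0.896-fold to 1.04-fold for VHL-r against DMSO.

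SQLE codes for squalene epoxidase, which adds oxygen to squalene as the first oxygen-dependent step of sterol synthesis. Its normalized counts were 1344, 1339 and 1292 with DMSO, 1447, 1507 and 1361 with VHL-r and 1571, 1592 and 1513 with R4VPL3-1. All VHL-r libraries were above all DMSO libraries, and all R4VPL3-1 libraries were above all VHL-r libraries, though by small margins. R4VPL3-1 exceeded DMSO 1.18-fold (1.09 to 1.27; limma adjusted p = 0.00284). SQLE did not pass the test between VHL-r and DMSO (log2 difference 0.12, interval 0.00 to 0.23, adjusted p = 0.148) or between R4VPL3-1 and VHL-r (0.12, interval 0.00 to 0.23, adjusted p = 0.485).

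LSS codes for lanosterol synthase, which closes the sterol rings. With DMSO its normalized counts were 1527, 1408 and 1364, with VHL-r 1525, 1589 and 1678, and with R4VPL3-1 1516, 1584 and 1396. The VHL-r mean was the highest of the 3, but the libraries of the 3 treatments overlapped. VHL-r against DMSO gave 1.12-fold (1.02 to 1.22; limma adjusted p = 0.0788), which became a call only without DMSO replicate 1, the highest DMSO library (adjusted p = 0.0398).

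DHCR7 codes for the reductase that makes cholesterol in the last step of one branch of the route. DHCR7 had normalized counts of 1409, 1366 and 1289 with DMSO, 1214, 1296 and 1297 with VHL-r and 1426, 1467 and 1350 with R4VPL3-1. The R4VPL3-1 libraries lay above the VHL-r libraries without overlap, with the DMSO libraries between and across them, the same arrangement as for HMGCS1. For DHCR7 the ratio of R4VPL3-1 to VHL-r was 1.11 (1.03 to 1.21) and did not pass the test (limma adjusted p = 0.267).

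**Figure D2:**
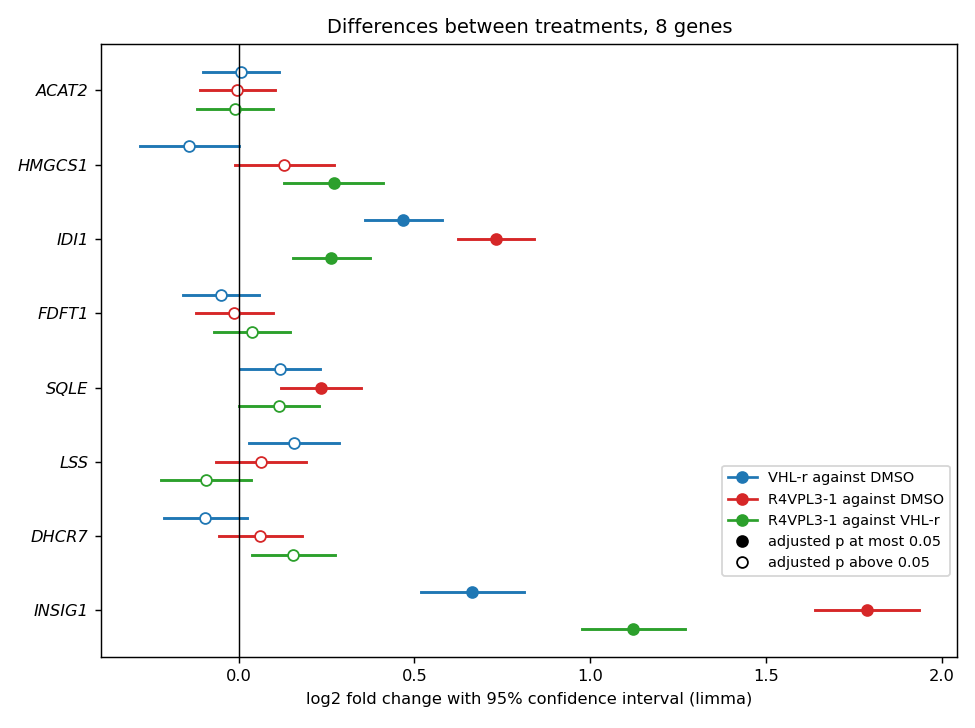
log2 fold changes of the 8 genes (x axis) with their 95% confidence intervals from limma in the 3 comparisons, filled where the adjusted p was at most 0.05 and open otherwise. INSIG1 and IDI1 are filled in all 3, HMGCS1 in R4VPL3-1 against VHL-r and SQLE in R4VPL3-1 against DMSO, and the other 4 genes are open throughout.

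The wider pathway was described with 4 lists of other genes, 42 in all, of which 39 were tested. Of these 39, 3 were higher and 0 lower with R4VPL3-1 than with VHL-r, and 9 were higher and 0 lower than with DMSO. With VHL-r, 4 were higher and 1 was lower than with DMSO. The shares of all tested genes called higher in these comparisons were the 1.14%, 13.1% and 10.3% given above, and the 4 of 39 with VHL-r lay at that background. The count of 3 became 1 without VHL-r replicate 2, VHL-r replicate 3 or R4VPL3-1 replicate 2. The median log2 differences over the 39 genes were 0.02, 0.03 and 0.02 in the same order.

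Among the other enzymes of synthesis, 12 of 14 were tested, and 6 were called higher with R4VPL3-1 than with DMSO, none lower, with a median log2 difference of 0.34, where 13.1% of all tested genes were called higher and 11.8% lower. These were MVK (1.28-fold) and MVD (1.25-fold), which act between mevalonate and isopentenyl diphosphate, TM7SF2 (1.46-fold), a sterol reductase, MSMO1 (1.47-fold) and HSD17B7 (1.44-fold), which take part in removal of the methyl groups at carbon 4 of the sterol, and SC5D (1.31-fold), a sterol desaturase. SC5D was also called between VHL-r and DMSO (1.26-fold, limma adjusted p = 1.06e-04) and was the only one of the 12 that was, a share near the 10.3% of all tested genes. MSMO1 and HSD17B7 were the 2 called between R4VPL3-1 and VHL-r. Without R4VPL3-1 replicate 1 TM7SF2 was no longer called (limma adjusted p = 0.0648). The enzymes called lay at several stages of the route, with uncalled ones between them. Of the uncalled ones, CYP51A1 had a mean of only 26.8. Other genes on its strand cover 68.2% of its exon bases, where reads are not counted. For EBP and GGPS1, the 2 not tested, that share was 36.4% and 37.3%. The part of this overlap in the low counts was not tested.

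For MSMO1 the VHL-r libraries lay within the range of the DMSO libraries. Its normalized counts were 322, 363 and 411 with DMSO, 376, 341 and 327 with VHL-r and 576, 515 and 512 with R4VPL3-1. R4VPL3-1 exceeded VHL-r 1.53-fold (1.34 to 1.76; limma adjusted p = 3.77e-04) with no overlap to either other treatment. HSD17B7 was at 325, 318 and 330 with DMSO, 366, 358 and 323 with VHL-r and 562, 464 and 393 with R4VPL3-1, where the 3 libraries were far apart. Its 1.34-fold excess of R4VPL3-1 over VHL-r (adjusted p = 0.0379) was lost on leaving out any 1 of the R4VPL3-1 replicates 1 and 2, the 3 VHL-r replicates and DMSO replicate 2, with adjusted p up to 0.326.

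Among the genes that process SREBP, SPRING1, a cofactor of this processing, was the only 1 of the 9 called. That share lay near the 10.3% and 13.1% of all tested genes called higher than DMSO with VHL-r and R4VPL3-1. SPRING1 was higher with VHL-r (1.23-fold of DMSO) and with R4VPL3-1 (1.14-fold). The latter call was lost without DMSO replicate 3 (limma adjusted p = 0.0664) or R4VPL3-1 replicate 2 (0.0512). Without VHL-r replicate 3, 3 genes of this list were called between VHL-r and DMSO in place of 1. The precursor gene SREBF2 had log2 differences of 0.01 for R4VPL3-1 against DMSO and -0.07 for VHL-r against DMSO (neither called by limma), and SREBF1 of -0.07 and -0.10. INSIG2, the paralog of INSIG1, had a log2 difference of 0.21 for R4VPL3-1 against DMSO, with an interval of -0.02 to 0.43.

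Of 11 genes of sterol transport and storage, 10 were tested. With VHL-r, 2 were higher and 1 was lower than with DMSO (10.3% and 9.51% of all tested genes). With R4VPL3-1, 2 were higher than with DMSO (13.1%) and 1 was higher than with VHL-r (1.14%), with 0 lower. STARD4, a cytosolic sterol carrier, was at 372, 317 and 366 with DMSO, 278, 264 and 257 with VHL-r and 315, 380 and 380 with R4VPL3-1. VHL-r alone was low, and R4VPL3-1 overlapped DMSO. STARD4 fell with VHL-r to 0.759-fold of DMSO (0.659 to 0.875; limma adjusted p = 0.0057), and R4VPL3-1 exceeded VHL-r 1.34-fold (adjusted p = 0.0225), a call lost on leaving out replicate 2 or 3 of either compound (adjusted p up to 0.146). MYLIP, a ubiquitin ligase, rose to 1.59-fold of DMSO with VHL-r and 1.33-fold with R4VPL3-1. NPC1, which exports cholesterol from lysosomes, rose with R4VPL3-1 to 1.14-fold, and SOAT1, which esterifies cholesterol, rose with VHL-r to 1.11-fold. These smaller calls depended on single libraries. The R4VPL3-1 calls were lost for MYLIP without DMSO replicate 1 (limma adjusted p = 0.0535) and for NPC1 without DMSO replicate 3 (0.065), and that of SOAT1 was lost without DMSO replicate 2 or 3, VHL-r replicate 1 or 2 or R4VPL3-1 replicate 2 (0.0515 to 0.199). Without DMSO replicate 1, NPC1 was called with VHL-r as well (adjusted p = 0.037). None of the 8 genes of the isoprenoid branch, which make dolichol and ubiquinone or attach isoprenoids to proteins, was called in any comparison. Of all tested genes, between 0.729% and 13.1% were called in either direction of a comparison.

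**Figure D3:**
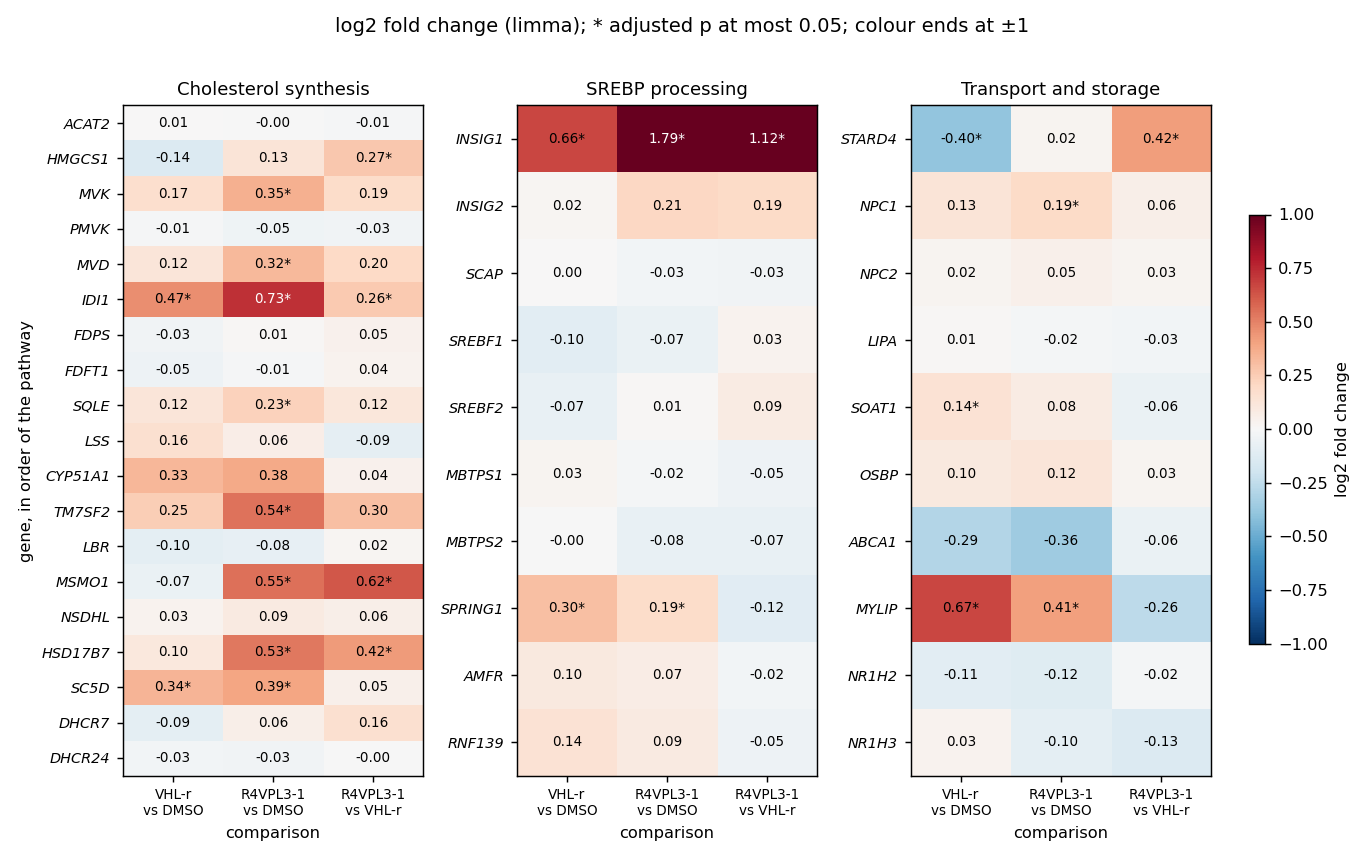
log2 fold changes (numbers and colour, colour ending at 1 on either side) of the enzymes of cholesterol synthesis in the order of the route, of INSIG1 and the genes that process SREBP, and of transport and storage genes, in the 3 comparisons, with a star at an adjusted p of at most 0.05. INSIG1 carries the largest values, IDI1 is the only enzyme with a star in all 3 columns, and most stars of the other enzymes stand in the column of R4VPL3-1 against DMSO.

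Sequence near the gene starts was compared because SREBP binds sterol regulatory elements and acts with the CCAAT-binding factor NF-Y. The RefSeq promoter table for GRCh38.p14 held 5 of the 8 genes (INSIG1, HMGCS1, IDI1, DHCR7 and LSS) and 13 of the 14 other enzymes, and the 250 bases before each RefSeq start were searched on both strands. For IDI1 that start lies outside the gene span of the deposited table. The bases just after it were not found near the start of any annotated IDI1 transcript, unlike those of the other genes. The element TCACNCCAC was in 0 of the 5 promoters and in 0.9% of all 27305 promoters. The shorter TCACNCNA was in 0 of 5, in 4 of 13 of the other enzymes (FDPS, HSD17B7, MSMO1 and MVK) and in 7.5% of all. CCAAT was in 4 of 5 (all but IDI1) and in 33.0% of all, GGGCGG, the Sp1 box, in 5 of 5 and in 42.3%, and CANNTG, the E-box, in 2 of 5 (INSIG1 and LSS) and in 62.2%. A match is a run of letters and not a shown binding site, and its absence says only that these letters are not in the window.

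The CCAAT matches of the 4 genes are shown with 10 bases on each side, 5′ to 3′ on the strand of the gene, to let the INSIG1 promoter, whose transcript moved most, be read beside those of HMGCS1, DHCR7 and LSS. Capitals mark CCAAT or, where it lies on the other strand, ATTGG.
INSIG1, chr7:155297698-155297722, plus strand: ccggcctcccATTGGttgcggccgc
HMGCS1, chr5:43313553-43313577, minus strand: tttccttttgATTGGtagaagccgg
HMGCS1, chr5:43313498-43313522, minus strand: accggccgcgATTGGctgtgggagc
DHCR7, chr11:71448473-71448497, minus strand: ggctcctcgaCCAATcacggggcgc
DHCR7, chr11:71448427-71448451, minus strand: tccgcctccgATTGGcaggcaatcg
LSS, chr21:46228910-46228934, minus strand: cggcgctctgATTGGttgcgtgggc

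The TCACNCNA matches of the 2 other enzymes called between R4VPL3-1 and VHL-r are shown in the same way, with the match in capitals. The MSMO1 promoter held 2 and that of HSD17B7 held 1. The motif did not go with the calls throughout. FDPS, called in no comparison, and MVK, called only between R4VPL3-1 and DMSO, also held a match. MVD, TM7SF2 and SC5D, called higher with R4VPL3-1 than with DMSO, held none.
MSMO1, chr4:165327503-165327530, plus strand: ctcactatccTCACTCCAtccgcggagc
MSMO1, chr4:165327557-165327584, plus strand: ttcgcgcgagTCACACGAtgtcggcaac
HSD17B7, chr1:162790594-162790621, plus strand: tcggcctatcTCACCCGAcgccgtctcc

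INSIG1, with the largest rise, and LSS, which passed no test, both had CCAAT and no TCACNCNA in these windows. The IDI1 window had neither, but it lies outside the counted gene span. The start of the IDI1 transcripts counted here was therefore not examined.

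To compare levels between genes, normalized counts were divided by the length of each gene's canonical transcript in GENCODE 44. In DMSO the order per kilobase was FDFT1 (1109 ± 41.1, SD, n = 3), ACAT2 (1021 ± 5.21), HMGCS1 (536 ± 59.1), DHCR7 (516 ± 23.2), IDI1 (503 ± 18.4), SQLE (447 ± 9.7), INSIG1 (304 ± 12.5) and LSS (293 ± 17.3). HMGCS1 and DHCR7, DHCR7 and IDI1, and INSIG1 and LSS were neighbours whose libraries overlapped. With VHL-r, INSIG1 stood at 482 per kilobase, overlapping DHCR7, and IDI1 at 696 stood clear above HMGCS1 and SQLE. With R4VPL3-1, INSIG1 reached 1053 per kilobase (948 to 1184 over the libraries), a level that overlapped those of FDFT1 and ACAT2, the most abundant of the set. Which transcripts of a gene the cells used was not measured, so the lengths are nominal.

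**Figure D4:**
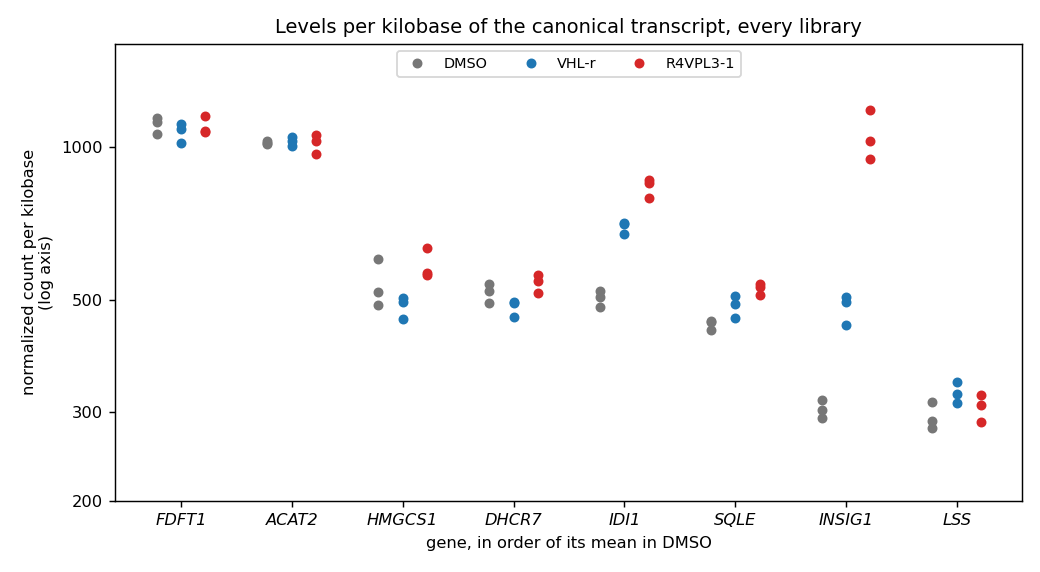
Normalized count per kilobase of the canonical transcript (log axis) of the 8 genes in each library, coloured by treatment and ordered by the DMSO mean. INSIG1 moves from the level of LSS in DMSO to that of FDFT1 and ACAT2 with R4VPL3-1, and the other genes keep near their DMSO level or, for IDI1, move part of that way.

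Each gene's log2 values were also scaled to a mean of 0 and an SD of 1 over the 9 libraries and averaged over the 8 genes. The average was between -0.74 and -0.22 in the DMSO libraries, between -0.45 and 0.13 with VHL-r and between 0.19 and 0.86 with R4VPL3-1. R4VPL3-1 replicate 3, the lowest of its treatment, lay only slightly above the highest VHL-r library. The genes followed this average unequally, with Pearson's r over the 9 libraries of 0.90 for SQLE, 0.89 for INSIG1, 0.75 for IDI1, 0.71 for DHCR7 and 0.62 for HMGCS1, but 0.37 for LSS, 0.31 for ACAT2 and -0.13 for FDFT1. Each r includes the gene itself and the treatments that the libraries share.

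The 10 other genes whose profile was most like the average had r between 0.941 and 0.963. They were FTH1, ZFYVE21, SPINDOC, JMJD6, PPP1R15A, FBXO42, MAFF, C19orf48, NQO1 and SQSTM1. None of them is in the 4 pathway lists. SPINDOC, PPP1R15A, MAFF, C19orf48 and SQSTM1 were called between R4VPL3-1 and VHL-r, and the others were not. All but ZFYVE21 were called between R4VPL3-1 and DMSO. Of all tested genes, 1.14% and 13.1% were called higher in these comparisons. The 10 genes were chosen for their profile over these same libraries, so their calls follow in part from that choice. FTH1, the ferritin heavy chain, had log2 differences of 0.15 for R4VPL3-1 against VHL-r (not called) and 0.22 against DMSO. NQO1, a quinone reductase, had 0.15 (not called) and 0.26, while PPP1R15A, a phosphatase subunit of the stress response, had 0.56 and 0.65.

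Some melanocyte markers were lower in the treated cells. SOX10, the transcription factor of this lineage, had normalized counts of 17007 to 17935 with DMSO, 9133 to 11216 with VHL-r and 7900 to 8752 with R4VPL3-1, and TYR and MLANA, which define pigment cells, were at or near 0 in all libraries. SOX10 was called lower with each compound than with DMSO and also with R4VPL3-1 than with VHL-r (0.826-fold, limma adjusted p = 0.00951, no overlap). Of the 5 markers that were tested, MITF was the other one called lower with each compound than with DMSO, and S100B, PMEL and DCT were called in no comparison. The sum of the 7 markers was 20730 to 22515 with DMSO, 11786 to 14668 with VHL-r and 10325 to 12524 with R4VPL3-1. Most of it was SOX10, and without SOX10 the sums overlapped, at 3184 to 4580, 2654 to 3452 and 2425 to 3772.

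The sum of 6 markers of other cell types was 1240 to 1568 with DMSO, 1035 to 1964 with VHL-r and 1160 to 1492 with R4VPL3-1, most of it COL1A1. Without COL1A1 it was 370 to 400, 306 to 330 and 261 to 305, ranges that did not overlap. KRT14, a keratin, made up most of that remainder and was called lower with R4VPL3-1 than with DMSO (0.721-fold, limma adjusted p = 0.00104), while its difference between VHL-r and DMSO was 0.827-fold (adjusted p = 0.0538), also without overlap. The part of these shifts in the values of the 8 genes was not tested.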

How the data were processed

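RNA of A375R cells was selected for poly(A), made into strand-specific libraries and sequenced as single reads of 100 bases. Per the study's methods, the authors aligned reads to GRCh38 with STAR, assigned them to genes with htseq-count, set to reverse strand, and deposited counts divided by DESeq2 (1.36.0) size factors, a normalized signal rounded to 2 decimals. Reads over exons of more than 1 gene on a strand are not counted by such a procedure. No exon of the 8 genes lies under another gene on its strand, and none of their 100-base windows occurs in another gene's transcripts.

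Division of each value by that of 1 read in its library gave back whole reads. Of the values above 0, 100% came out whole within 0.05, with totals of 26435568 to 32085626 reads and size factors between 0.9341 and 1.1012. Within each treatment, no library was as close to another as sampling noise would make it. Because the deposited values are normalized, limma (3.58.1, R 4.3.3, eBayes with trend) was fitted to log2(value + 1) of 15230 genes whose mean was at least 10, single-factor and without a block as in the study's methods, with all 9 libraries. The scripts were tested on simulated data. Alternatives were pseudocounts of 0.1 and 5, no filter, a mean of at least 50, TMM rescaling, a replicate block, the robust option of limma, DESeq2 (1.42.0) and edgeR (4.0.16) on recovered reads, only the 6 libraries compared, leaving out each library, and for motifs a window of 300 bases. An exact permutation test of 3 against 3 libraries cannot give p below 0.1.

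The 8 genes and the lists were chosen with earlier results of these data known. The text names the 8 genes, genes of the lists (those called, and some uncalled ones with their values or motif matches) and the 10 genes of nearest profile, and others are said to be looked up later. Some genes of the pathway are not reported here.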

Additional observations from a re-analysis of the deposited data

Results flagged for a closer look

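HMGCS1 was singled out because it met 2 conditions. Against the mean of the same DMSO libraries, all 3 R4VPL3-1 libraries lay above it and all 3 VHL-r libraries below it. It was also called between the 2 compounds. The difference between the compounds was 0.27 on the log2 scale (limma adjusted p = 0.0388), and passing that test was part of the choice. Over the alternatives other than the replicate block its adjusted p lay between 0.00759 and 0.272. The DMSO libraries, from 2613 to 3221, overlapped those of both compounds.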

How the results depend on the processing

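INSIG1 was called higher in all 3 comparisons under each of the 19 alternatives, and IDI1 under all but that without R4VPL3-1 replicate 1. The count of the 8 genes called between R4VPL3-1 and VHL-r ranged from 1 to 3 on leaving out single libraries, from 3 to 4 between R4VPL3-1 and DMSO and from 2 to 3 between VHL-r and DMSO. That of the 39 other sterol genes between R4VPL3-1 and VHL-r ranged from 1 to 3. Over all tested genes, 182 in place of 285 were called in that comparison without R4VPL3-1 replicate 1. edgeR and DESeq2 on recovered reads gave the same counts of the 8 genes, 3, 3 and 2.

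The signs that turned were those of uncalled differences near 0. On the log2 scale, ACAT2 in R4VPL3-1 against DMSO gave 0.0061 with TMM rescaling, 0.0073 by edgeR and 0.0019 by DESeq2, and -0.0290 to 0.0311 without single libraries. Over such fits, ACAT2 ranged from -0.0355 to 0.0246 for R4VPL3-1 against VHL-r and from -0.0077 to 0.0216 for VHL-r against DMSO, and FDFT1 from -0.0461 to 0.0092 and STARD4 from -0.0488 to 0.1151 for R4VPL3-1 against DMSO. MSMO1 ranged from -0.1516 to 0.0226 for VHL-r against DMSO. The cause was not tested.

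Replicate numbers were shared between treatments. Over all tested genes, libraries with the same number correlated at only -0.01 to 0.12 in their deviations, so they were not taken as pairs. Not every library correlated best with its own number (DMSO replicate 1 with R4VPL3-1 replicate 2 at 0.10). These correlations do not show whether single genes followed the replicate number. HMGCS1 counts decreased from replicate 1 to 3 in all 3 treatments. Those of INSIG1 increased with DMSO and VHL-r and decreased with R4VPL3-1. With the replicate block, 389 genes were called between R4VPL3-1 and VHL-r in place of 285, 4241 between R4VPL3-1 and DMSO in place of 3792 and 3451 between VHL-r and DMSO in place of 3016. Among the 8 genes the block gave 3, 4 and 3 calls, HMGCS1 being added, higher with R4VPL3-1 (adjusted p = 0.0436) and lower with VHL-r (0.0362) than DMSO, and in the 4 lists 3, 11 and 7, of which 4 against DMSO with R4VPL3-1 and 5 with VHL-r were transport and storage genes.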

Other observations

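Relatives of IDI1 and ACAT2 were looked up after the values of the 8 had been seen. IDI2, the paralog of IDI1, was listed at 0 in all 9 libraries. ACAT1, the mitochondrial thiolase, was at 2279, 2321 and 2274 with DMSO, 2261, 2229 and 2212 with VHL-r and 2187, 2124 and 2385 with R4VPL3-1, and passed limma's test in no comparison (adjusted p = 0.629 to 0.995).

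INSIG1-DT, a noncoding transcript annotated as divergent from INSIG1, was also looked up at that point. Its normalized counts were 33.6, 52.1 and 42.6 with DMSO, 39.0, 33.6 and 33.8 with VHL-r and 55.1, 77.6 and 61.0 with R4VPL3-1. R4VPL3-1 was above every other library, and VHL-r, with which INSIG1 rose, overlapped DMSO for INSIG1-DT. The log2 difference was 0.83 for R4VPL3-1 against VHL-r (limma adjusted p = 0.0427), 0.59 for R4VPL3-1 against DMSO (0.0452) and -0.24 for VHL-r against DMSO (0.486). Both calls were lost under several alternatives, with adjusted p of 0.0284 to 0.248 and of 0.0293 to 0.201 over the fits other than the replicate block.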
